A study of Drosophila melanogaster with 60 samples.

Results

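Chromatin at 6 regulators of gut and visceral mesoderm development was followed in 35 lists of ChIP-seq peaks from Drosophila melanogaster embryos. The genes were biniou (bin), HLH54F, fork head (fkh), defective proventriculus (dve), caudal (cad) and huckebein (hkb). They were taken by name from the 13968 protein-coding genes of the annotation, and all 6 names matched. For each gene the region from 2 kb upstream of its start to its end was examined on the dm6 build. Peaks of the Hox protein Ultrabithorax (Ubx) that overlapped this region by at least 1 bp were counted in every list. For the active-chromatin mark H3K27ac, the Polycomb mark H3K27me3 and the Polycomb recruiter Pleiohomeotic (Pho), the percent of the region lying under peaks (the covered share) was taken as the level.

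Nuclei of 1 tissue had been captured by INTACT, in which a tissue-specific driver tags nuclei so that they can be pulled out of whole embryos. The mesoderm carried twi-INTACT and the neurons elav>INTACT. Early means embryonic stages 10 to 13 and late means stages 14 to 17. Ubx was mapped in early mesoderm (3 lists), late mesoderm (2), early neuronal (2) and late neuronal nuclei (2). Both histone marks were mapped in twi-INTACT mesoderm (2 early and 2 late lists for each mark). They were mapped again, together with Pho, in late mesoderm of 2 further genotypes with 3 lists each. The control was twi-INTACT; UAS-Nslmb,GFP-Ubx, which holds the degrader Nslmb without a driver, and the degradation genotype was twi-INTACT, Mef2>Nslmb,GFP-Ubx. Nslmb removes GFP-tagged proteins, and Mef2 is active in muscle, while the nuclei were tagged under twi. No list measured Ubx protein, so its loss cannot be checked from these data. Nothing in the labels says that lists of a group came from separate embryo collections, so p-values measure the spread between these libraries, which may be partly technical.

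The visceral mesoderm is the inner layer of the mesoderm that wraps the gut and gives rise to its muscles. The gut tube itself comes from the endoderm of the midgut and from ectodermal foregut and hindgut. Polycomb complexes place H3K27me3 over developmental regulators in cells where these are silent, and Pho is a DNA-binding protein that brings such complexes to DNA. Ubx patterns the visceral mesoderm of the midgut, where Hox genes set the positions of constrictions and of signalling centres.

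Of the mesodermal members, bin encodes a FoxF forkhead factor needed for visceral mesoderm differentiation and HLH54F encodes a bHLH factor of the caudal visceral mesoderm. Of those known mainly from the gut tube, fkh encodes a FoxA forkhead factor of foregut, hindgut and salivary gland, and dve encodes a homeodomain protein of the proventriculus and midgut. The homeodomain factor cad acts in posterior patterning and the hindgut, and the zinc finger factor hkb acts at the ends of the embryo and bounds the mesoderm. On dm6, bin lies at chr3L:6990622-6994447 on the plus strand, HLH54F at chr2R:17757405-17760517 (plus) and fkh at chr3R:28580976-28585264 (minus). Further, dve lies at chr2R:22243963-22286469 (plus), cad at chr2L:20770731-20783135 (plus) and hkb at chr3R:4345015-4346646 (minus). Their regions are unequal in length, from 3632 bp for hkb to 44507 bp for dve, which is longer than that of 97% of genes, and cad follows with 14405 bp. The 2 kb upstream of HLH54F overlap the neighbouring gene Sardh, so peaks there could belong to either.

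The lists were very unequal. The Ubx lists held 936 to 66459 peaks, the H3K27ac lists 4721 to 85449, the H3K27me3 lists 3957 to 56131 and the Pho lists 45669 to 61534. Inside 2 of them, early mesoderm Ubx R2 and control H3K27ac 3, the names of the peaks point to a different replicate, and the labels were followed. H3K27ac within 1 kb of the starts of marker genes varied widely between lists. The mean covered share of the 10 muscle markers was 2.8 to 18.5% in the early twi-INTACT lists and 3.9 to 31.9% in the control lists, while that of the 10 neuronal markers was 0.56 to 19.8% and 5.21 to 30.3%. In the late twi-INTACT lists muscle markers averaged 2.01 to 45.1% and neuronal markers 0 to 24.6%, and in the degradation lists 7.49 to 47.5% and 5.5 to 19.5%. Over all genes this mean was 10.4 to 30.2% in the early twi-INTACT, 7.66 to 40.2% in the control and 14.5 to 29.5% in the degradation lists. In early mesoderm 6 of 10 muscle markers (Mhc, Tm2, up, wupA, bt and Mlc1) had no H3K27ac peak in either list. The same held for 3 of 4 midgut endoderm markers (GATAe, mex1 and grn), 5 of 10 neuronal and 5 of 6 hemocyte markers. It also held for 6345 of all 13968 genes. In late twi-INTACT mesoderm the midgut endoderm markers averaged 0 and 32.2% in the 2 lists, beside 2.88 and 35.8% for all genes. Epidermal markers averaged 11.1 to 44.1% and hemocyte markers 5.06 to 32.4% in the control lists. The part of other cell types in the results below was not tested, and in pooled nuclei a lower covered share in each nucleus and fewer nuclei with the mark cannot be told apart.

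Long stretches of H3K27me3 lay over these genes. In the control nuclei 5 of the 6 (all but HLH54F) had at least 50% of their region under H3K27me3 peaks in every list, a state reached by 0.780% of all genes. In the degradation nuclei all 6 did, against 3.21% of all genes. In early twi-INTACT mesoderm fkh, cad and hkb did (1.33% of genes), and in late twi-INTACT mesoderm none did (0.0358% of genes). Of the 60 values that 6 genes give in 10 lists, 59 were higher than those of at least 95% of genes in the same list, and the lowest, HLH54F in late twi-INTACT list 2, was higher than 92.1% of genes. For H3K27ac 2 of 60 values, for Pho 1 of 36 and for Ubx 3 of 54 were at or above that level. A high place among genes did not always mean a long stretch of H3K27me3. In late twi-INTACT list 3, where 7.7% of genes had any peak, HLH54F was 3.34% covered and higher than 96.7% of genes.

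In the 3 control lists the covered share of bin was 89.8, 98.4 and 79.1%, that of cad 97.9, 93.2 and 64.9%, and that of hkb 100, 100 and 61.6%. Control list 3 was the lowest for all 6 genes; it held 56131 peaks with a median length of 148 bp, against 220 and 649 bp in the other two. For dve the values were 93.2, 94.9 and 51.5%, for fkh 92, 80.7 and 56.7%, and for HLH54F 57.3, 96 and 47.8%. The order of the means in the control nuclei ran from bin (89.1%) and hkb (87.2%) through cad, dve and fkh to HLH54F (67%), and no neighbours in this order differed beyond the spread of their lists. Without control list 3 all 6 genes were past 50% in both remaining lists, as were 2.50% of all genes.

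**Figure D1:**
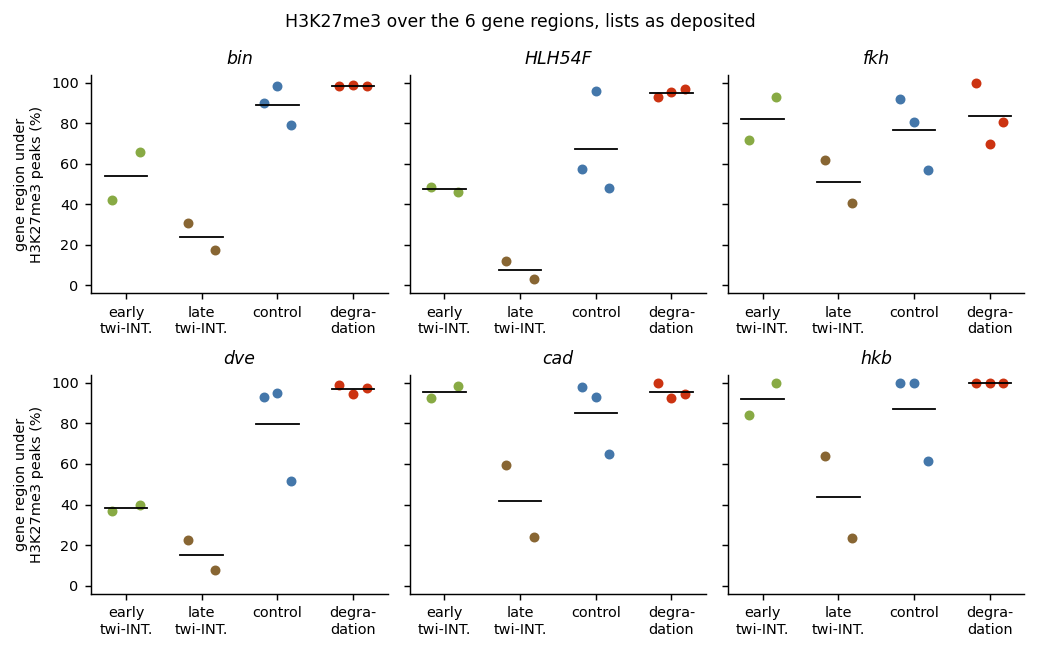
Percent of each gene region under H3K27me3 peaks in every list as deposited, with 1 point per list and a bar at the group mean (early and late twi-INTACT mesoderm, 2 lists each; control and degradation, 3 lists each). The late twi-INTACT lists run from 3.34% (HLH54F) to 63.8% (hkb) and lie below the early lists at each gene, and the degradation lists lie between 69.5% (fkh) and 100% (hkb).

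In control and degradation nuclei most peaks over the gene starts were long. At several genes they ended at nearly the same place in different libraries. Over HLH54F 1 peak of 11.1 to 11.3 kb was called in control list 2 and in all 3 degradation lists, from 8.33 to 8.39 kb upstream of the start to 2.74 to 2.95 kb downstream, short of the gene's end. In control lists 1 and 3 the HLH54F peak was 4.11 and 0.499 kb long and ended 0.084 and 0.088 kb downstream of the start. Control list 3 also had short peaks over the starts of fkh (0.357 kb) and dve (0.944 kb), and none over that of hkb. Over bin a peak of 13.2 to 14 kb was called in control list 2 and in all 3 degradation lists. In control lists 1 and 3 the peak over the bin start was shorter, at 4.63 and 4.56 kb, and spanned its downstream part. In both of these lists the bin region held 2 peaks. The downstream edge of the bin domain lay 3.45 to 3.75 kb from the start in all 6 of these lists, near the end of the gene.

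Over cad the domain was 15.5 to 19.9 kb long in the 5 lists of both genotypes that had a peak over its start, and control list 3 had none there. The hkb domain measured 5.7 to 6.38 kb in 4 lists and 16.9 kb in degradation list 1. The longest domains were those of dve, 61.3 and 49.9 kb in degradation lists 1 and 3, and of fkh, 53.2 kb in degradation list 1. In degradation list 2 the dve peak over the start was 10.7 kb and that of fkh 4.37 kb, so the called length differed between lists of 1 group by more than the covered share did. In the early twi-INTACT lists the peak over the start measured 3.15 and 14.4 kb at cad, 3.25 and 3.91 kb at fkh and 0.308 and 0.31 kb at HLH54F. In early list 2 alone there was one at hkb (12.8 kb, longer than in the control lists), dve (2.27 kb) and bin (2.19 kb). In the late lists the peaks over the starts of HLH54F (0.298 kb) and cad (1.21 kb) were the only ones called, both in list 2.

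**Figure D2:**
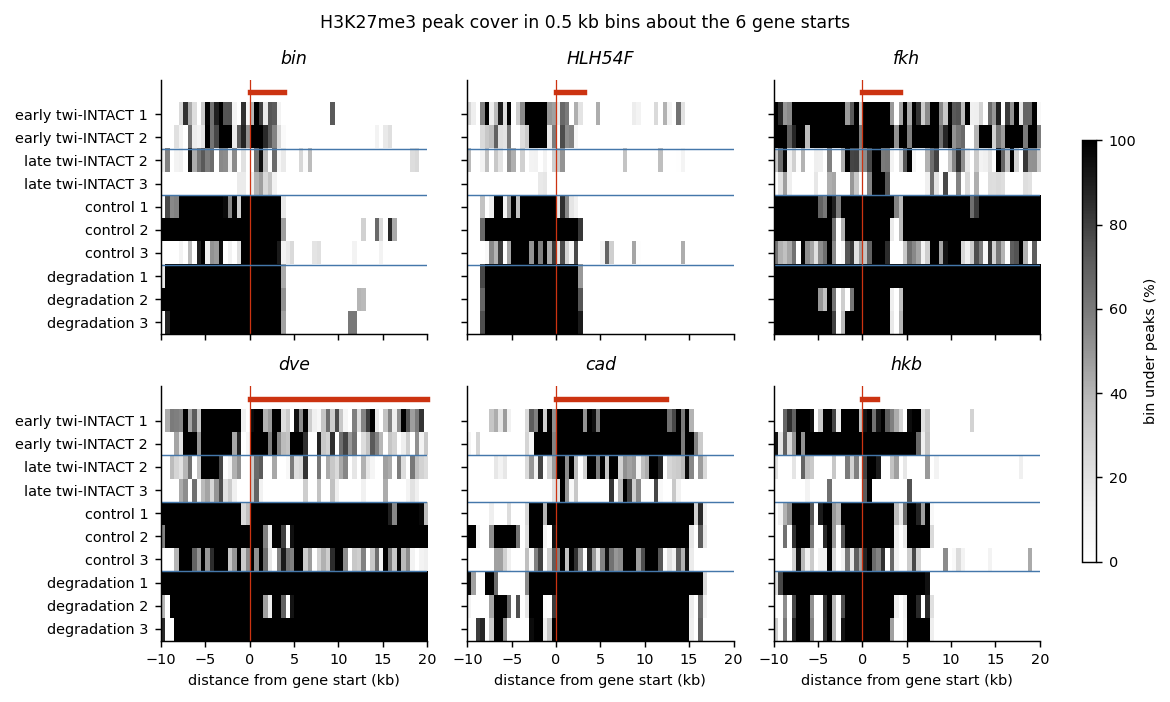
H3K27me3 peak cover in bins of 0.5 kb by distance from each gene start (red line; the red bar above marks the gene, drawn to at most 20 kb), with 1 row per list and white to black for 0 to 100% of a bin. The bin and HLH54F domains stop near the end of the gene in all degradation lists. The dve and fkh domains run on past 20 kb in degradation list 1, and that of dve also in degradation list 3. The late twi-INTACT lists are broken into short pieces, as is control list 3 except for a peak of 4.56 kb over bin.

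Between early and late twi-INTACT mesoderm, the as-deposited share was lower in both late lists than in both early lists at each gene. For cad it was 92.5 and 98.5% early and 59.6 and 24.1% late, and for hkb 84 and 100% early and 63.8 and 23.5% late. The late lists covered 7.76 and 1 Mb in all, and the early lists 7.69 and 6.2 Mb, so lists were trimmed to the 1 Mb of the smallest by dropping the lowest-scored peaks before testing. After trimming, cad had 75.3 and 98.5% early and 14.5 and 24.1% late, a difference of -67.6 ± 12.5 points (SE; adjusted p = 0.412 by limma), and the groups did not overlap. For fkh the trimmed values were 66.7 and 62.1% early and 45.9 and 40.6% late (adjusted p = 0.412 by limma), and for hkb 35.2 and 100% early and 7.96 and 23.5% late (adjusted p = 0.412 by limma). The early and late lists thus lay apart, late lower, at 3 of the 6 genes, as they did at 4.18% of the 2418 genes tested. The mean early share after trimming was 37.7% over the 6 genes and 2.62% over all genes tested, which had less room to be lower. Trimming kept 770 and 283 peaks of the early lists and 3492 and 3957 of the late lists. The same length thus lay in fewer, longer peaks early, and the part of this in the differences was not tested. As deposited, the mean share over the 6 genes was 68.2% in the early and 30.6% in the late twi-INTACT lists. In the control lists, also of late mesoderm but of another genotype, it was 80.8%. As deposited, a lower share was thus not seen in all late lists. The control lists covered 8.58, 21.4 and 13.1 Mb in all, so these means are not at equal cover. The reason for this gap between late lists was not tested.

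The other genes held little H3K27me3 after trimming. For dve the trimmed share was 2.27 and 0.288% early and 3.12 and 7.85% late, so the late lists lay above the early ones, as at 11.9% of genes tested. For bin it was 0 and 0% early and 0 and 17.3% late, and for HLH54F 12.3 and 0% early and 0 and 3.34% late. The direction for bin and dve thus depended on trimming: as deposited, the differences were -29.9 points for bin and -23.1 for dve, and without late list 3 the trimmed differences were -23.1 and -16.4 points. Of all genes tested 0% passed the threshold (an adjusted p of 0.05 by limma); at an unadjusted p below 0.05 there were 38 higher and 43 lower. Leaving out 1 library raised the count to between 7 and 3001 genes. Without early list 1 the differences were -79.2 points for cad and -84.3 points for hkb. Without late list 2 that of bin was 17.3 points, from 1 late list against 2 early lists at 0. In each of these fits 1 group held a lone list, which is assumed to vary like the others, so no call is drawn from them. For hkb the difference was -19.5 points without early list 2 (adjusted p = 0.752 by limma) and -5.84 with the better-scored 50% of peaks (adjusted p = 0.795 by limma). With the lists as deposited the adjusted p was 0.0585 for cad and 0.0759 for hkb by limma.

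In late mesoderm with Ubx degradation all 6 genes had a higher mean H3K27me3 share than in the control after trimming to 8.58 Mb, but no difference passed the test and the lists of the 2 genotypes overlapped at each gene. HLH54F had 57.3, 96 and 38% in the control and 92.8, 95.2 and 96.9% in the degradation lists, a difference of 31.2 ± 17.1 points (SE; adjusted p = 0.464 by limma). For dve the values were 93.2, 94.9 and 42.5% against 98.9, 94.6 and 97.5%, a difference of 20.1 ± 17.2 points (SE; adjusted p = 0.464 by limma). Control list 3 was again the lowest of the 6 libraries for each gene. Without it the differences were 18.3 points for HLH54F, 4.31 for bin, 2.97 for dve, 0.145 for cad, 0 for hkb and -2.9 for fkh.

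For the remaining genes the trimmed means were 89.1 ± 9.67% in control and 98.4 ± 0.356% in degradation nuclei for bin, 83.8 ± 20.6% and 95.7 ± 3.88% for cad, 74.3 ± 21.6% and 83.4 ± 15.4% for fkh, and 87.2 ± 22.1% and 100% for hkb (SD, n = 3; adjusted p = 0.464 to 0.603 by limma). The share of hkb was 100% in all 3 degradation lists, so it could not have risen further. Among the 8109 genes tested, 0% passed the limma threshold (unadjusted p below 0.05 at 29 higher and 175 lower), and the lists did not overlap at 0.185% of genes in the higher and 0.308% in the lower direction. The median difference was 12.4 points over the 6 genes and -0.734 points over all genes tested, and 1.56 and -0.699 points without control list 3. Trimming kept 12974, 2212 and 28939 peaks of the control lists and 648, 3057 and 3286 of the degradation lists. The same length thus lay in peaks of unlike size, and the part of this in the differences was not tested.

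**Figure D3:**
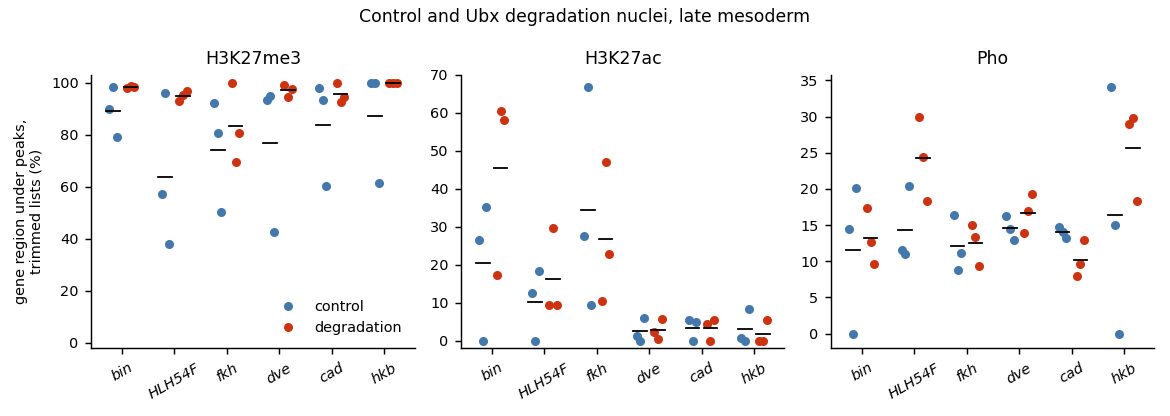
Percent of each gene region under H3K27me3, H3K27ac and Pho peaks in late mesoderm of the control (blue) and degradation (red) genotypes after trimming, with 1 point per list (3 per group) and a bar at the mean. The H3K27me3 points of the degradation lists lie between 69.5 and 100%, those of the control between 38 and 100%, and the groups overlap for H3K27me3 and H3K27ac at each gene; for Pho the lists lie apart at cad.

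The 6 genes were not free of H3K27ac. In control and in degradation nuclei each had at least 1 H3K27ac peak in every list, which also held for 66.0% and 71.4% of all genes. The highest-ranked H3K27ac peak of the 6 genes in any of these lists was at bin, in degradation list 3. Bin did not lead in each list. In control list 2 the best was at fkh (rank 3644, bin 7418), and in control list 3 at dve (rank 1077, bin 2919). The covered share of bin as deposited was 29, 48 and 35.1% in the control lists and 17.3, 60.5 and 61.6% in the degradation lists, and in degradation lists 2 and 3 the whole 2 kb around its start was covered. In degradation list 3 the best bin peak had a fold of 10.1 over background (the authors' value) and ranked 60 of 53149. In the other 5 lists of the 2 genotypes the best bin peak had a fold of 2.16 to 3.16.

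After trimming, bin had 26.5, 0 and 35.1% in control and 17.3, 60.5 and 58.1% in degradation nuclei, a difference of 24.7 ± 17.6 points (SE; adjusted p = 1 by limma). It was 1.93 points with the better-scored 50% of peaks and 14.5 to 38.8 points without 1 list. For fkh the values were 27.4, 66.7 and 9.24% against 10.3, 46.9 and 22.7%, and for HLH54F 12.4, 0 and 18.2% against 9.23, 29.6 and 9.47% (adjusted p = 1 for both by limma). These lists overlapped widely, and the means of dve, cad and hkb were 1.81 to 3.41% in both genotypes. Of the 13377 genes tested 0% passed by limma (unadjusted p below 0.05 at 78 higher and 29 lower), and the lists lay apart at 0.919% of genes (higher) and 0.501% (lower), with none of the 6 among them.

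In control and degradation nuclei most acetylated bases of these genes also lay under H3K27me3 peaks. In the 3 degradation lists 100% of the H3K27ac-covered bases of each of the 6 regions were also under H3K27me3 peaks of the same replicate number, against 8.14, 20.5 and 23% over all gene regions. In control replicates 1 and 2 this was 100% for each gene except dve in replicate 1 (90.6%), against 4.27 and 25.6% over all gene regions. In control replicate 3 it ranged from 45.8% (dve) to 100% (hkb), against 18.2%. These regions are themselves largely under H3K27me3, from 69.5 to 100% in the degradation lists, which largely fixes such an overlap. In twi-INTACT mesoderm it was 60.4% (dve) to 100% in early replicate 1, and in late replicate 2 it was 0% for HLH54F, 21.4% for dve, 35.1% for bin, 56.8% for hkb, 59% for cad and 76.7% for fkh. Both marks were measured on pooled nuclei, so the same nucleus and different nuclei cannot be told apart as their source.

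In twi-INTACT mesoderm H3K27ac was sparse and rested on 1 list per stage. In early list 1 the covered share was 34.6% for fkh, 22% for hkb, 11.2% for HLH54F, 6.63% for cad, 5.96% for dve and 2.4% for bin, whereas in early list 2 fkh alone had a peak (0.779%). In late list 2 the shares were 31.1% for hkb, 23.1% for fkh, 19.4% for cad, 19.3% for dve, 15.1% for bin and 9.86% for HLH54F, and in late list 3 dve alone had a peak (0.245%). Fkh early and dve late were therefore the genes with a peak in every list, beside 42.7% and 31.2% of all genes. After trimming to 1.01 Mb dve was the only one of the 6 still covered in any list, at 0.245% in late list 3 (adjusted p = 0.695 by limma). Without late list 2 the dve difference was 0.245 points, from a lone late list, so no call is drawn from it. Over the 5543 genes tested 0% passed by limma (unadjusted p below 0.05 at 19 higher and 161 lower), and lists lay apart at 3.70% (late higher) and 9.04% (late lower).

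Pho peaks covered at most 34.1% of any of the 6 regions. In the control 5 of 6 genes (all but bin) had a Pho peak in every list, as did 79.4% of all genes, and in the degradation nuclei all 6 did, as did 78.7% of all genes. Bin had 4, 0 and 7 peaks in the control lists and 4, 2 and 4 in the degradation lists. The best-ranked Pho peak of the 6 genes was at cad in each list except control list 3, where it was at dve (rank 2027). The cad peaks had the authors' fold of 3, 2.57 and 2.24 in control and 2.22, 2.76 and 2.38 in degradation nuclei, and ranks from 197 of 53805 (control list 1) to 3393 of 61534 (control list 3).

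Cad was also the gene at which Pho lists lay apart. Its trimmed share was 14.8, 14 and 13.2% in control and 7.93, 9.62 and 12.9% in degradation nuclei, lower in 3 of 3 degradation lists by -3.86 ± 1.52 points (SE; adjusted p = 0.99 by limma), and the lists lay apart in this direction at 3.62% of genes. Within 1 kb of the cad start the difference had the opposite sign, 14.8 points (adjusted p = 0.962 by limma). The other 5 genes had higher means in degradation nuclei with overlapping lists, from 12.1 ± 3.92% and 12.6 ± 2.91% at fkh to 14.3 ± 5.25% and 24.3 ± 5.82% at HLH54F (SD, n = 3; adjusted p = 0.957 to 0.994 by limma). Of 13746 genes tested 0% passed by limma (unadjusted p below 0.05 at 437 higher and 282 lower), and 6.03% lay apart in the higher direction.

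Ubx peaks were few outside the largest lists. In the early mesoderm lists R, R2 and S (3015, 44627 and 9415 peaks), dve held 1, 22 and 3 peaks, cad 1, 6 and 3, HLH54F 1, 1 and 0, fkh 0, 3 and 1, bin 0, 2 and 0, and hkb 0, 3 and 0. Dve and cad thus had a peak in every list, as did 8.20% of all genes. Leaving out list R2 left dve and cad (8.51% of genes), leaving out list R added fkh (35.5%) and leaving out list S added HLH54F (12.6%).

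In the late mesoderm lists R and S dve held 5 and 8 peaks, cad 1 and 1, hkb 1 and 0, HLH54F 0 and 4, fkh 0 and 1, and bin none. Dve and cad were again the 2 with a peak in both, beside 18.8% of all genes. Early neuronal lists R and S held 16 and 32 peaks at dve, 5 and 13 at cad, 1 and 4 at fkh, 1 and 3 at bin, 1 and 2 at hkb and 0 and 4 at HLH54F. All but HLH54F had a peak in both, as did 70.9% of all genes. Neither late neuronal list (1336 and 936 peaks) had a peak at any of the 6 genes, and 0.802% of all genes had one in both.

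**Figure D4:**
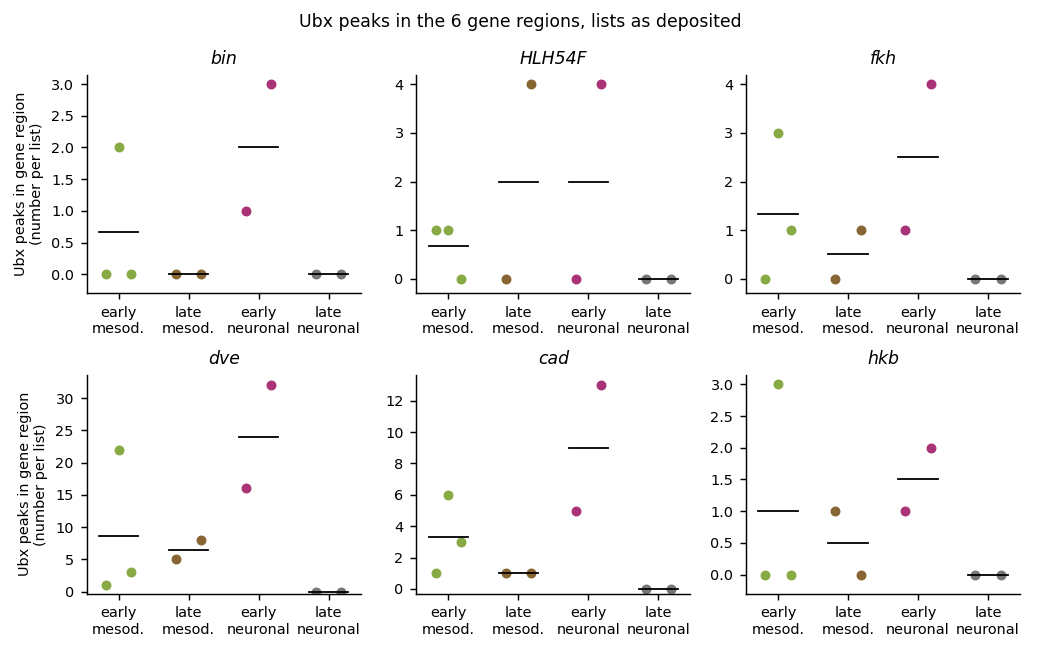
Number of Ubx peaks in each gene region in every list as deposited, with 1 point per list and a bar at the group mean (early mesoderm 3 lists, the other groups 2 each; the vertical scales differ between genes). Dve reaches 32 peaks and cad 13 in early neuronal list S, and the late neuronal lists are at 0 for all 6 genes.

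Set against the size of the list, dve had the most peaks of the 6 in every list that had any, with ties in the early mesoderm lists R and S. Per 1000 peaks of a list it had 0.333, 0.493 and 0.319 in early mesoderm, 0.507 and 0.654 in late mesoderm and 0.416 and 0.482 in early neuronal nuclei. Per 10 kb of region dve led in early neuronal list R alone (3.59, with cad at 3.47). The highest was cad in early neuronal S (9.02, with HLH54F at 7.82 and dve at 7.19), hkb in early mesoderm R2 (8.26 against 4.94 at dve) and HLH54F in late mesoderm S (7.82 against 1.8 at dve). A count of 0 in the late neuronal lists allows up to 2.27 and 3.26 peaks per 1000 (3 counts; counting error only), which is above the levels of all the other lists, so a lower Ubx level there was not detectable at this depth. The corresponding limits for the late mesoderm lists are 0.304 and 0.245.

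No gene differed between Ubx groups in a way the lists could establish. In early nuclei none of the 6 had peaks in every list of 1 tissue and none of the other (0.0215% of genes in the mesoderm direction, 5.78% in the neuronal direction), and the exact permutation p ranged from 0.3 to 1 (two-sided over lists, smallest possible 0.1). In late nuclei dve and cad had peaks in both mesoderm lists and in neither neuronal list, as did 14.8% of genes, with 0.0573% in the other direction (exact permutation p = 0.333, the smallest possible). Between stages, 1.15% of genes had peaks in every early mesoderm list and no late one and 0.773% the reverse, none of the 6 among them (exact permutation p of 0.2 to 1, smallest possible 0.1). In neurons 5 genes, all but HLH54F, had peaks in both early lists and in neither late one, as did 63.8% of genes, and 0.00716% were the reverse (exact permutation p = 0.333 for these 5, the smallest possible). None of these 24 unadjusted tests reached 0.05. With lists cut to equal numbers of peaks, the 5 genes had no peak in either early neuronal list and dve none in late mesoderm, and neither dve nor cad had one within 1 kb of its start in either late mesoderm list.

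Of the 150 Ubx peaks at the 6 genes, 95 had their middle in an intron, 31 in a coding exon and 20 upstream of the gene. At dve 72 of 87 and at cad 20 of 30 were intronic, whereas fkh and hkb had 5 upstream each and no intronic peak. The highest-ranked peak of the late mesoderm lists at these genes was a 50 bp peak in a cad intron, at chr2L:20778846-20778895, with a rank of 573 of 12233 and a fold of 3.11 in list S (authors' values). At HLH54F the best was a peak whose middle lay 75 bp upstream of the start (chr2R:17757294-17757365), with a rank of 1021 and a fold of 2.81 in the same list.

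Ubx peaks at these genes fell mostly within the H3K27me3 domains of the control nuclei. Of the member peaks, 6 of 7 in late mesoderm list R and 9 of 14 in list S overlapped H3K27me3 peaks of all 3 control lists, against 5.57 and 5.8% of all peaks of those lists. In the early neuronal lists it was 17 of 24 and 49 of 58, against 4.83 and 5.58%, and in the early mesoderm lists R, R2 and S 3 of 3, 30 of 37 and 6 of 7, against 6.62, 6.22 and 5.8%. The 6 regions are themselves largely under H3K27me3, so these shares describe where the genes lie. Pho was different: 5 of 7 and 7 of 14 of the late mesoderm member peaks overlapped a Pho peak of at least 1 control list, beside 62.3 and 61.2% of all peaks.

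No base of the 6 regions was under Ubx peaks of more than 3 of the 9 lists. At cad 1 stretch of 77 bp, in a coding exon 564 bp downstream of the start, lay under peaks of early mesoderm R and R2 and early neuronal S. At dve the most was also 3 lists (early mesoderm R2 and S and early neuronal S), over 48 bp of a coding exon. At bin the most was both early neuronal lists, over 53 bp of a coding exon. At fkh the longest of 3 stretches under 2 lists (early mesoderm R2 and early neuronal R) was 355 bp at the start, and at hkb the longer of 2 (early mesoderm R2 and early neuronal S) was 592 bp upstream. All of these places were under H3K27me3 peaks in all 3 control and all 3 degradation lists.

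The sequence at the most shared stretch is shown for bin, fkh, cad and hkb, as the place where separate Ubx libraries coincide. Each is read 5′ to 3′ on the plus strand of dm6 from the RefSeq genome: bin at chr3L:6991087-6991286, fkh at chr3R:28585265-28585414, cad at chr2L:20771195-20771394 and hkb at chr3R:4346871-4347070. Capitals mark the bases under peaks of the largest number of lists, and the fkh and hkb windows lie wholly inside that stretch and are in lower case.
bin: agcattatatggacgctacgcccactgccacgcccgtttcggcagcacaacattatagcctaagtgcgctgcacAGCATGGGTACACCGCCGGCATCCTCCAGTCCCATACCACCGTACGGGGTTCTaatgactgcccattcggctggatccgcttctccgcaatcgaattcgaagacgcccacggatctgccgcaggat
fkh: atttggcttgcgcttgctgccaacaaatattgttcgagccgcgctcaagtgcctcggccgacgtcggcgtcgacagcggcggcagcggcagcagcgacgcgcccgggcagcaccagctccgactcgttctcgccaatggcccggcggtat
cad: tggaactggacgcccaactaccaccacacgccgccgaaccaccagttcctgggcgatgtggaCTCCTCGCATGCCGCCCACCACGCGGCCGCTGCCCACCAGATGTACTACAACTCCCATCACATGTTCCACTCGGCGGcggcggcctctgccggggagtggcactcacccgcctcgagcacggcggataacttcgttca
hkb: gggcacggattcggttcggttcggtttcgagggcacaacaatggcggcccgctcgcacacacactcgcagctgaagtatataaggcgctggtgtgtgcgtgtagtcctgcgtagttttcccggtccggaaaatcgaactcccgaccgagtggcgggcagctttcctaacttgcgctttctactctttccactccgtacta

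These windows were rich in G and C, at 58% for bin, 66.7% for fkh, 65.5% for cad and 57% for hkb, against a mean of 48.1% over windows of 200 bases at the middles of all 186245 Ubx peaks. None held a match on either strand to TAATTA (a homeodomain core), TGATNNAT (Hox with its partner Exd), GTAAACA (forkhead domain) or GCCATNTT (Pho). In the windows at all Ubx peaks these were present in 7.92, 9.32, 3.07 and 4.29%, respectively, so a match was uncommon throughout. The absence of a match says only that these letters are not in these windows.

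Other genes of gut muscle and gut development also carried H3K27me3. Of 22 visceral mesoderm genes, 4 (bap, tin, wg and slp1) had at least 50% of their region under H3K27me3 in every control list, and 10 in every degradation list. Of 16 gut and endoderm genes, 8 did in the control (tll, drm, lab, hh, D, opa, Abd-B and upd1) and 12 in the degradation nuclei. The mean share over the visceral mesoderm genes was 24.9 to 61.6% in the control lists and 49.2 to 68.2% in the degradation lists, and over the gut and endoderm genes 43.3 to 73.7% and 69.3 to 80%. In late twi-INTACT mesoderm 0 of 22 and 0 of 16 had at least 50% covered in every list, and in early twi-INTACT mesoderm 7 of 22 and 10 of 16. Of all genes 0.780% did in the control, 3.21% in the degradation nuclei, 1.33% in early and 0.0358% in late twi-INTACT mesoderm. The late counts of 0 are therefore near the share of all genes.

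None of these genes passed the limma threshold in any of the 5 comparisons of marks. After trimming, the mean early H3K27me3 share was 10.9% over the visceral mesoderm genes, 28.3% over the gut and endoderm genes and 2.62% over all genes tested. Genes with little share early had little room to be lower late. Between stages the lists for H3K27me3 lay apart, late lower, at 1 of 18 tested visceral mesoderm genes (5.56%) and 5 of 14 gut and endoderm genes (35.7%), beside 4.18% of all genes tested. The visceral mesoderm gene was bap, an NK homeodomain factor that acts upstream of bin, with 81.8 ± 25.7% early and 36.3 ± 4.22% late (SD, n = 2 each; adjusted p = 0.412 by limma). Among the gut genes the largest differences were at the terminal gap gene tll (80.4 ± 27.7% and 16.4 ± 10.1%) and the posterior Hox gene Abd-B (54.2 ± 2.72% and 14.6 ± 8.29%), with n = 2 and an adjusted p of 0.412 by limma for both. In the late-higher direction 6 visceral mesoderm genes (33.3%) and 2 gut genes (14.3%) lay apart, beside 11.9% of all genes tested; those named by the largest difference were the Wnt gene wg (0.279 ± 0.395% and 9.89 ± 0.477%), pnt, srp and the endodermal GATA factor GATAe.

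With Ubx degradation 18 of 22 visceral mesoderm genes and 14 of 15 tested gut genes had a higher mean H3K27me3 share than the control, with median differences of 2.58 and 11 points, beside 1020 of 8109 genes tested, and no lists lay apart. This rested on control list 3: without it 9 of 21 and 6 of 15 were higher, with medians of -1.35 and -0.369 points. For Pho, jeb, the ligand of the Alk receptor in visceral mesoderm (8.33 ± 3.13% in control, 13.3 ± 2.34% in degradation nuclei; SD, n = 3; adjusted p = 0.986 by limma), and otp, a homeodomain factor of the hindgut (12.3 ± 2.1% and 15 ± 0.99%; SD, n = 3; adjusted p = 0.994 by limma), lay apart upward. They were 1 of 22 (4.55%) and 1 of 16 (6.25%), near the 6.03% of all genes. For H3K27ac no gene of either list lay apart.

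For Ubx, 9 of 22 visceral mesoderm and 5 of 16 gut genes had peaks in both late mesoderm lists and neither late neuronal list (40.9 and 31.2%, beside 14.8% of all genes). The late neuronal lists held only 1336 and 936 peaks. With equal numbers of peaks, genes with Ubx in 1 late tissue only fell from 2080 to 75. Peak counts of these genes were not set against the length of their regions. Those with the most peaks were hth, a partner of Hox proteins (18 and 19 peaks), the FGF gene ths (6 and 8) and dpp, a BMP ligand that Ubx activates in the visceral mesoderm (3 and 5). Of the gut genes these were Abd-B (2 and 7), otp (2 and 3) and lab (1 and 3), a Hox gene of the midgut. Between mesoderm stages, Hand, a bHLH factor of heart and visceral muscle, had 1 peak in each late list and none in the 3 early ones, 1 of 22 (4.55%) beside 0.773% of all genes. In neurons 17 of 22 and 11 of 16 had peaks in both early lists and neither late list (77.3 and 68.8%, near the 63.8% of all genes), led by hth, ths and vn and by Abd-B, otp and lab.

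The genes most like each member were sought by the root mean square difference of covered share over the 10 group means of the 3 marks, with lists trimmed per mark. Nearest to cad were erm (4.42 points), lbe (4.44) and Doc2 (4.77), nearest to hkb were tll (5.05), fd59A (7.13) and Rh5 (7.14), and nearest to fkh were bap (6.85), eyg (8.99) and unpg (9.96). Of these, bap, tll and erm lie on the same arm as their member, 7196, 26506 and 18800 kb away. Nearest to dve was CG30371 (1.35 points), to HLH54F Gpxl (2.03) and to bin Hsp70Bbb (5.81). For dve and HLH54F the trimmed means of both histone marks were at most 6.17%, so this likeness is mainly one of low levels. The trimmed means of bin were 26.1% H3K27me3 in control and 19.4% H3K27ac in degradation nuclei, where its H3K27me3 mean was 0%. Both bin means rested mainly on list 3 of their group. The best bin peak there had a fold of 18.1 (rank 32) for H3K27me3 in control and 10.1 (rank 60) for H3K27ac in degradation nuclei. Trimming took the H3K27me3 lists to 1 Mb here, which left hkb at 0% in the control and degradation groups.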

How the data were processed

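Per the submitters' processing notes, the tools were FastQC, Bowtie and MACS2, with the dm6 build; versions, parameters and the use of inputs are not given in the sources used here. Per the labels' protocols, DNA was amplified with the ThruPLEX kit. The authors deposited 1 broad-peak list per immunoprecipitate (35 of 60 samples), with a score, a fold (a ratio over background) and 2 columns of −log10 p and −log10 q; these deposited values were used only to describe, rank and filter peaks within a list. The 25 inputs were not used here, nor were 5 combined Ubx lists. Read depth is unknown, so the number of peaks limits precision.

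Genes came from the Ensembl annotation of the same assembly and bases from the RefSeq genome; 13 peaks ended past a chromosome end and 148 mitochondrial peaks were dropped. For the marks and Pho, lists of a comparison were trimmed to the covered length of the smallest by dropping the lowest scores, and arcsine square roots of covered share were fitted with limma 3.58.1 (R 4.3.3, trended variance) over genes covered in at least 1 list, with Benjamini-Hochberg adjustment and a threshold of 0.05. Ubx genes were called when every list of 1 group and no list of the other had a peak, and tested per member by exact permutation over lists. Python 3.11.15, numpy 2.4.6 and pandas 2.3.3 did the rest; code was tested on simulated data. Same-numbered control and degradation lists deviated together for H3K27ac (correlations 0.416 to 0.625) and H3K27me3 (0.298 to 0.36), a pairing read from the titles' replicate numbers and these correlations; the paired fit is in the closing section. For each pathway list the text names up to 2 genes per direction whose lists lay apart (up to 3 for Ubx) by largest difference or most peaks. Members and lists were chosen with earlier results of these data known, and alternatives are given in the closing section.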

Additional observations from a re-analysis of the deposited data

Results flagged for a closer look

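Ubx peaks at dve, per 1000 peaks of a list, were 0.507 and 0.654 in the late and 0.333, 0.493 and 0.319 in the early mesoderm lists. The mean difference was 0.199 (exact permutation p = 0.2, two-sided over lists, smallest possible 0.1). The share of all genes with late mesoderm lists above the early ones was not counted. In neuronal nuclei dve had 0 in both late lists against 0.416 and 0.482 per 1000 in the early ones. The neuronal difference minus the mesodermal one was -0.648 peaks per 1000, and it was not tested. No direction is known in neurons, since a count of 0 in the late neuronal lists allows up to 2.27 and 3.26 per 1000. Within 1 kb of the dve start the mesodermal difference was -0.0429.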

How the results depend on the processing

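None of the 72 alternative values of the members for H3K27me3 with degradation crossed the threshold; 2 were 0 (bin within 1 kb of the start and hkb without control list 3), and without 1 list the fkh difference ranged from -2.9 to 16.1 points. With every gene kept 5 genes were called there. Between stages, H3K27me3 genes called were 2 with the better-scored 50% of peaks, 17 with lists as deposited, 18 within 1 kb of the start and 7 to 3001 without 1 list; H3K27ac genes called were 0 to 2424 without 1 list. As deposited, the stage differences of H3K27me3 were -29.9 for bin and -23.1 for dve; without 1 list they ranged from -23.1 to 17.3 (bin), -35.5 to 1.67 (HLH54F) and -16.4 to 6.57 (dve). The members with at least 50% under H3K27me3 in late twi-INTACT mesoderm were 0 without late list 2, beside 0.0358% of all genes. Without late list 3 they were 3 (fkh, cad and hkb), beside 0.336% of all genes.

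H3K27ac with degradation reversed with the better-scored 50% of peaks for HLH54F (-5.12), fkh (3.02), dve (-0.356) and hkb (0.881), as deposited for dve (-5.41) and cad (1.2), without repeat peaks for fkh (10.7) and dve (-0.0824), and within 1 kb of the start for dve (-3.3) and cad (17.3). Without 1 list it ranged from -0.854 to 9.34 (HLH54F), -20.4 to 8.32 (fkh), -1.17 to 2.51 (dve) and -1.88 to 3.65 (cad). Pho reversed with the better-scored 50% for bin (-1.27), HLH54F (-7.53) and fkh (-7.43), as deposited for fkh (-1.9) and dve (-0.327), and within 1 kb of the start for bin (-10.4), fkh (-3.83) and cad (14.8). Without 1 list it ranged from -4.11 to 5.94 (bin) and -1.14 to 2.68 (fkh). The cause was not tested.

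Genes with Ubx in 1 group only, against 811 (early tissues), 2080 (late tissues), 268 (mesoderm stages) and 8916 (neuronal stages), were 233, 75, 169 and 200 with equal numbers of peaks. Within 1 kb of the start they were 1502 (early tissues), 451 (late tissues) and 5025 (neuronal stages), and with the better-scored 50% 1061 (late tissues) and 4898 (neuronal stages). Without 1 list they were 906 to 4888 (early tissues), 2373 to 5022 (late tissues) and 552 to 1609 (mesoderm stages).

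With the replicate number as a block 0 genes were called for each mark and for Pho, HLH54F H3K27me3 stayed at 31.2 points (adjusted p = 0.519 by limma), and no other call changed. For Pho same-numbered lists did not deviate together (correlations 0.00112, -0.00946 and -0.0146). Keeping genes covered in no list could not be fitted for the stage comparisons, since most residual variances were 0. The number of members called, and the pathway lists for H3K27me3 with degradation, with each list left out were added after seeing the data. Unequal list sizes limit all comparisons.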
